A study of Mus musculus with 4 samples.

Results

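The genes of the proteasome were taken as every gene whose symbol begins with Psma, Psmb, Psmc, Psmd or Psme followed by a digit, which gave 44 of the 22700 genes measured in cultured mouse bone marrow cells. The proteasome is the protease that destroys proteins tagged with ubiquitin. Its 20S core is a barrel with outer alpha rings (Psma genes) and inner beta rings (Psmb genes), and 3 of the beta subunits, Psmb5, Psmb6 and Psmb7, carry the catalytic sites. The 19S cap, built of an ATPase ring (Psmc genes) and non-ATPase subunits (Psmd genes), binds the tagged protein, unfolds it and feeds it into the core. In immune cells, and in most cells exposed to interferon, Psmb8, Psmb9 and Psmb10 take the places of Psmb5, Psmb6 and Psmb7 in newly built cores to give the immunoproteasome, and Psme1 and Psme2 form the PA28 activator that docks on the core. This form is known for cutting peptides that are then shown on MHC class I.

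By role, the 44 genes were 31 constitutive subunits of the 20S core and 19S cap, the 5 immune genes named above, 3 chaperones of 19S assembly (Psmd5, Psmd9 and Psmd10), 2 other activators (Psme3 and Psme4) and 2 core subunits of restricted tissues (Psma8 of the testis and Psmb11 of the thymus). The remaining gene, Psmc3ip, shares only its name with the family, since it encodes a partner protein used in meiotic recombination and is no subunit. All but Psmb11 reached the level minimum of 20 normalised reads in at least 1 library, so 43 of the 44 genes were tested, among 13642 genes in all.

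The marrow came from 12-week-old male mice that were either diabetic db/db mice, labelled BKS.Cg-m+/+leprdb/J, or their littermate controls db/+, labelled BKS.Cg-m+/+leprdb+/J. The db allele is a mutation of the leptin receptor gene Lepr, and the controls carry 1 copy of it too. Cells were grown over 7 to 8 days with M-CSF at 10 ng/ml, which favours macrophages, or with GM-CSF at 20 ng/ml, which gives macrophages together with cells of dendritic type. Each of the 4 groups (M-CSF db/+, M-CSF db/db, GM-CSF db/+ and GM-CSF db/db) was 1 library of ribosome-depleted total RNA. No difference between a pair of libraries therefore had a replicate check, and the sources used here do not say whether a library pooled several animals.

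Depth was 25603389 to 28622706 reads a library. Levels below are the authors' normalised reads, given in the order M-CSF db/+, M-CSF db/db, GM-CSF db/+ and GM-CSF db/db, and log2 folds are differences of log2(normalised reads + 5), which understates those of genes with few reads. Ratios carry exact conditional 95% intervals and shares carry Wilson intervals, both on read pairs and for counting error only. Lepr itself was low, at 6.7, 21.8, 49.4 and 60.3, and its mutation alters splicing, so gene-level reads do not check the genotype. The macrophage markers Csf1r, Emr1, Cd68, Lyz2, Itgam, Mertk and Fcgr1 summed to 503098 to 744228 in every library. Lyz2 was the largest part of each sum, at 250023.8, 242719.4, 626680.5 and 621787.4, and it and Cd68 were higher in GM-CSF. Csf1r (120626.6, 105159.2, 33549.6 and 33103.3), Emr1 (98661.5, 97863.4, 11230.3 and 11449.7) and Fcgr1 (5418.7, 4530.1, 1445.7 and 1638.4) were lower in GM-CSF. The dendritic marker Itgax stood at 775.2 and 921.0 in M-CSF against 56041.7 and 56258.8 in GM-CSF, while Flt3 was at 0 in both GM-CSF libraries. The 12 stromal markers differed between the M-CSF libraries, with sums of 26646 in db/+ and 73505 in db/db, and were at 302 and 336 in GM-CSF.

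The sequence upstream of a gene is where regulators of transcription can act. The 4 shown are for genes on which the results turn. Psmd8 and Psmb5 had the largest culture folds, and Psmb8 is the immune counterpart of Psmb5. Psmb9 alone passed the main test (limma under the authors' scaling) as lower in GM-CSF. Each sequence runs 5′ to 3′ over the 250 bases before the annotated start, from RefSeq on build GRCm38.p6. Capitals mark a motif match.

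Psmd8, chr7:29180674-29180923, minus strand: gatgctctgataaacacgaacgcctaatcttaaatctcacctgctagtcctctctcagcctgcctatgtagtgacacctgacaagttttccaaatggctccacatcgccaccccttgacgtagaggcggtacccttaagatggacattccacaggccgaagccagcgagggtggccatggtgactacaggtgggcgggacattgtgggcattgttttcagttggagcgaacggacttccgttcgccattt
Psmb5, chr14:54617996-54618245, minus strand: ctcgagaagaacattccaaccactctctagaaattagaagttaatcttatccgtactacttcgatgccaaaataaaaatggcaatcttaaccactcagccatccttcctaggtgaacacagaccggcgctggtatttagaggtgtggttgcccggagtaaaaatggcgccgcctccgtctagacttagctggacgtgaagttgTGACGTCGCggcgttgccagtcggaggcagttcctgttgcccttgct
Psmb9, chr17:34187331-34187580, minus strand: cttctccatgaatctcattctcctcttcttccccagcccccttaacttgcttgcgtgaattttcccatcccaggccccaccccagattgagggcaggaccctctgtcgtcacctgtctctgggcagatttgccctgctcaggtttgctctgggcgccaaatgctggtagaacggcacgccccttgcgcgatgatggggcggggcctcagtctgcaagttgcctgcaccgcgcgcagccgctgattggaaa
Psmb8, chr17:34197945-34198194, plus strand: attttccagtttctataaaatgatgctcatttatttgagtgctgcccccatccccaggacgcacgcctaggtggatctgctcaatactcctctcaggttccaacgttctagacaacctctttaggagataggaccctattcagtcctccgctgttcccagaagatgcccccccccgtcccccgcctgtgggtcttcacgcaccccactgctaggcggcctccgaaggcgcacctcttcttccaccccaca

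The capitals in Psmb5 are a match to the antioxidant response element, the binding motif of the factors Nfe2l1 and Nfe2l2 (letters TGACNNNGC, searched on both strands), which lies at bases -47 to -39 from the start. Psmd8, Psmb9 and Psmb8 held no match in this window to that motif or to the interferon-stimulated response element (also searched on both strands), which says only that these letters are not there. In the whole window of 300 bases around the start, promoters were found for 37 of the 44 genes, and Psma8, Psmb1, Psmb2, Psmb7, Psmc3, Psmd3 and Psmd7 had none in the table. The antioxidant motif occurred in 6 of the 37 (Psmb5, Psmb6, Psmc6, Psmd12, Psmd9 and Psme4), or 16.2%, beside 12.4% of all 32851 promoters. The interferon-stimulated element occurred in Psmb3, Psmd4, Psmd9 and Psme1, or 10.8% beside 3.44%. These shares describe letter matches only. Proteasome members were counted by gene and the background by promoter, so the units differ.

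Levels of the constitutive subunits ran from 187 to 3842 normalised reads per kb of coding sequence in M-CSF db/+ and from 231 to 13241 in GM-CSF db/+. Per kb of coding sequence, the 31 constitutive subunits had a median of 1516, 1596, 1832 and 1882 normalised reads in the 4 libraries. In M-CSF db/+ the interquartile range ran from 1099 to 2198, with Psmb1, a structural beta subunit, highest at 3842. The lowest were Psmb3 (a beta subunit), Psma5 and Psma3 (alpha subunits), with means of 276, 251 and 300 over the libraries. Psmb3 and Psma5 have near-identical copies elsewhere in the mouse genome (3 and 2 copies), which the authors' read assignment could have split, and no such copy was found for Psma3. The immune genes Psmb8, Psme1, Psmb10 and Psmb9 lay within the full range of the constitutive subunits, at means of 3622, 2955, 2169 and 1523 per kb.

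Psme2, the second PA28 subunit, was at 49.4 per kb against 2955 for its partner Psme1. Its levels of 38.0, 41.8, 40.4 and 21.5 normalised reads were low in all 4 libraries. The annotated copy Psme2b matches 82.5% of the Psme2 transcript at 99.4% identity, so the Psme2 level is uncertain and its folds are not interpreted. Psma8 was at 28.5, 48.8, 62.8 and 47.3, and Psmc3ip at 39.0, 32.2, 40.4 and 34.4. Psmb11, listed at 6.7, 0.0, 0.0 and 4.3, was at or near the level of 3 read pairs, which is 5.23 to 6.73 normalised reads depending on the library.

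**Figure D1:**
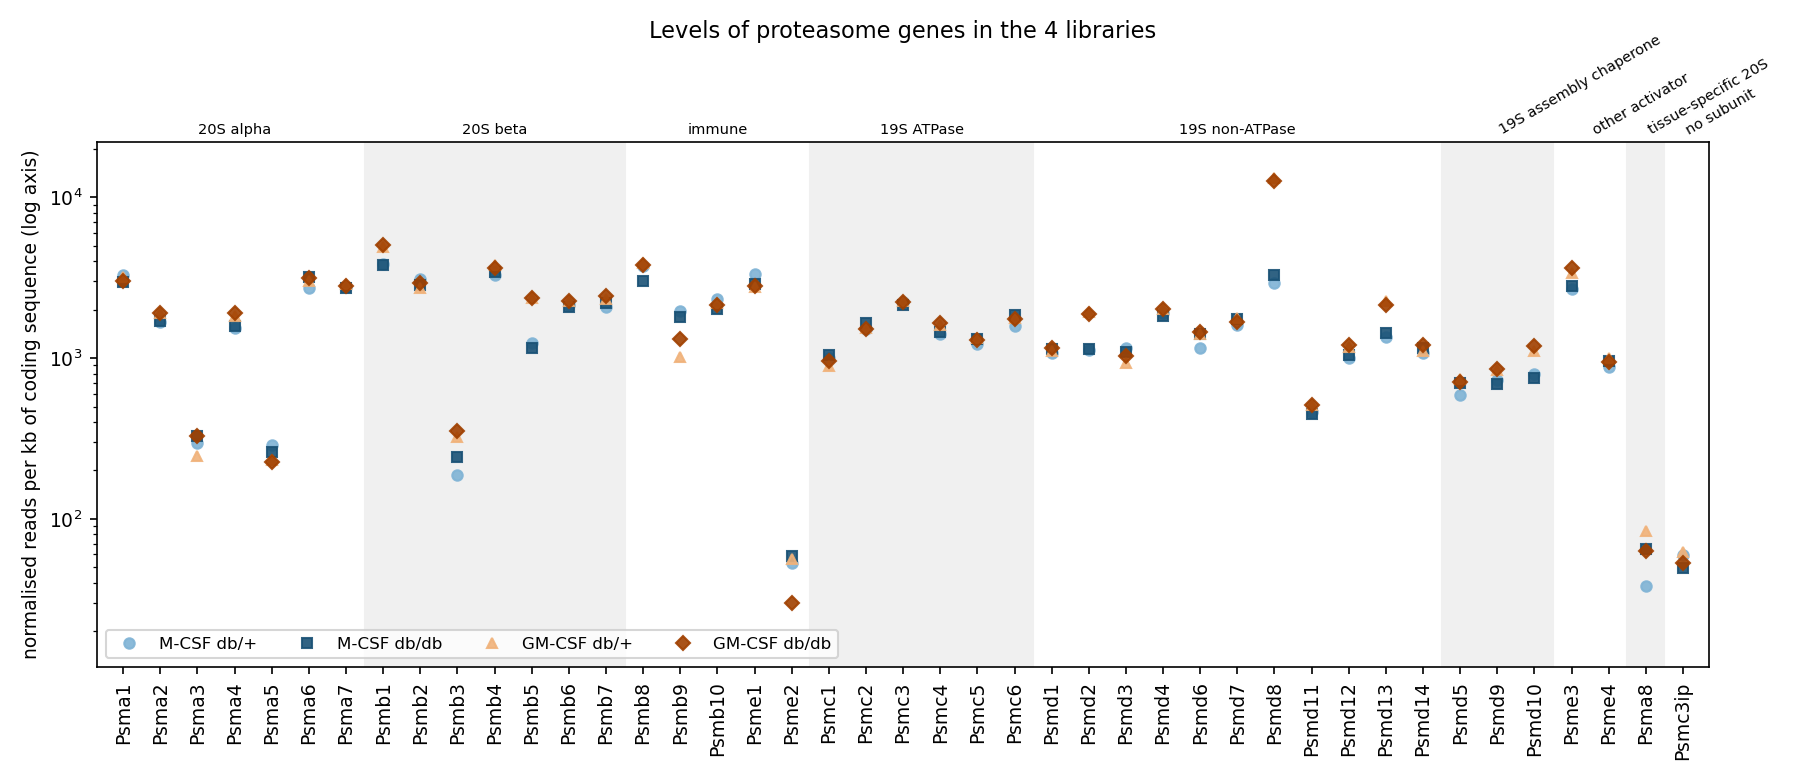
Normalised reads per kb of coding sequence (log axis) for 43 proteasome genes, grouped by role, with 1 point for each of the 4 libraries. For most genes the 4 points lie close together. Psmd8 stands at 13241 and 12653 in the GM-CSF libraries, and Psme2, Psma8 and Psmc3ip lie lowest.

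The first comparison asked how the growth factor of the culture, GM-CSF or M-CSF, went with proteasome expression. Of the 43 tested genes, 10 passed the culture test: 9 rose in GM-CSF (Psmd8, Psmb5, Psmd2, Psmd13, Psmb3, Psmd10, Psmb1, Psme3 and Psma4) and 1, Psmb9, fell. This share of 23.3% was below the 57.1% called among all genes tested (29.8% higher and 27.3% lower in GM-CSF), and among genes reaching 200 normalised reads the shares were 27.5% and 62.4%. The test was limma with Benjamini-Hochberg adjustment on an additive model of culture and genotype. No group had a replicate, and the 1 residual degree of freedom was the difference of the culture fold between the genotypes. The variance of each gene was also moderated over all genes (prior degrees of freedom 12.87). In bulk RNA, fewer cells of a type and less RNA per cell cannot be told apart. The median log2 fold of the 31 constitutive subunits was 0.10, with 24 higher in GM-CSF, and that of all genes was 0.02. The 24 constitutive subunits with no near-identical copy had a median of 0.06. Markers of other cell types moved with culture as well. In GM-CSF, limma called 11 of 11 tested stromal markers and 7 of 7 neutrophil markers lower (neutrophil sums 15646, 16427, 784 and 908), 4 of 5 dendritic markers higher and 1 (Flt3) lower, and 2 of 7 macrophage markers higher and 3 lower, and the part of these cells in the proteasome folds was not tested.

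How the libraries are scaled sets the direction of small culture folds. The authors' scaling put the median of all genes at 0.02, whereas scaling to library totals moved it to -0.32. With library totals 25 genes passed, 4 higher in GM-CSF (Psmd8, Psmb5, Psmd2 and Psmd13) and 21 lower. Among all 13714 genes tested that way, 2288 passed as higher and 6387 as lower. Later counts of genes passing with library totals stand beside these. Of the 10 calls 5 remained, those 4 higher genes and Psmb9. The call of Psma4 turned in direction to -0.08, and Psmb1, Psme3, Psmb3 and Psmd10 kept theirs at 0.04, 0.01, 0.31 and 0.22 without passing. As a share of all reads, the 44 genes took 0.292%, 0.300%, 0.294% and 0.291%. Parts of the family differed. The constitutive 20S genes took 0.0867%, 0.0881%, 0.0782% and 0.0782%, and the immune genes 0.0363%, 0.0314%, 0.0256% and 0.0256%. The constitutive 19S genes, which include Psmd8, took 0.132%, 0.141%, 0.156% and 0.153%.

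**Figure D2:**
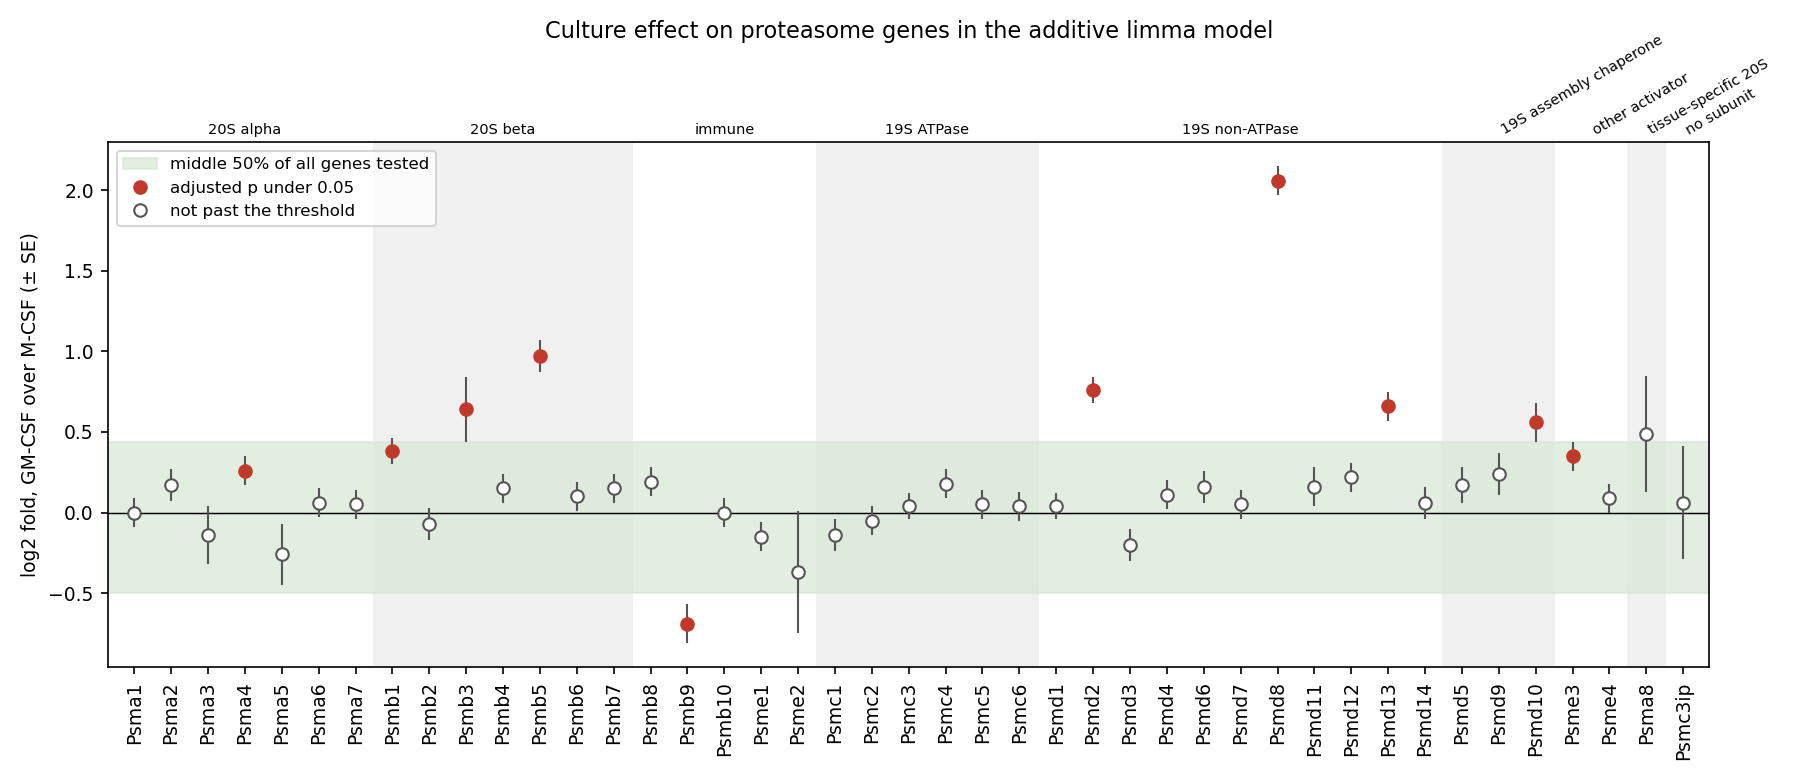
Culture effect of 43 proteasome genes as log2 fold of GM-CSF over M-CSF with its SE from the additive limma model, grouped by role. Filled points passed at an adjusted p under 0.05, and the green band is the middle 50% of all genes tested, from -0.50 to 0.44; with library totals in place of the authors' scaling, all folds shift down and, of the filled points, Psma4 turns negative.

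Psmd8, a non-ATPase subunit of the 19S lid, had the largest culture fold of the family. Its levels were 3095.1 and 3493.2 in the M-CSF libraries and 14021.9 and 13399.0 in the GM-CSF libraries, so the cultures did not overlap and GM-CSF was high in both genotypes. The ratio of GM-CSF to M-CSF was 4.53 (4.29 to 4.79) in db/+ and 3.84 (3.65 to 4.04) in db/db. The limma log2 fold was 2.06 ± 0.09 (SE; adjusted p = 6.21e-11, Benjamini-Hochberg), and 1.72 with library totals (adjusted p = 1.27e-08). No near-identical copy of the Psmd8 transcript and no gene overlapping its exons was found in the GENCODE M21 annotation. In GM-CSF its level per coding kb exceeded that of every other gene of the family. The summed level of the 44 genes was 71103 and 72170 in M-CSF against 89893 and 89665 in GM-CSF, and 68008, 68677, 75871 and 76266 without Psmd8.

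Among the other 19S subunits, Psmd2, a large scaffold subunit at the base of the cap, was at 3044.6, 3082.8, 5238.9 and 5127.2. Both GM-CSF libraries lay above both M-CSF libraries, with a limma log2 fold of 0.76 ± 0.08 (adjusted p = 1.79e-06). A near-identical copy, Gm5422, covers 95.9% of its transcript. Psmd13, a lid subunit, was at 1529.5, 1620.7, 2558.3 and 2416.2, a log2 fold of 0.66 ± 0.09 (limma adjusted p = 2.05e-05). Its exons overlap those of Sirt3 on the other strand, which was at 306.3, 230.9, 336.5 and 302.3. The sources used here do not say whether the libraries keep the strand, and reads of such overlapping genes cannot be told apart.

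The other non-ATPase subunits did not pass in limma under the authors' scaling, while with library totals 5 of them passed as lower. The lowest fold among these subunits was that of Psmd3, at 1832.9, 1747.0, 1478.2 and 1640.6 (log2 fold -0.20, limma adjusted p = 0.0872 and edgeR adjusted p = 0.0444). None of the 6 ATPase genes passed in limma, edgeR or DESeq2, and in each of these tools 0 had an unadjusted p under 0.05, while with library totals 5 passed as lower in GM-CSF. Their log2 folds ran from -0.14 to 0.18. Psmc4 had the highest, at 1784.4, 1819.4, 2008.7 and 2083.8, and Psmc1 the lowest, at 1324.0, 1376.7, 1182.1 and 1271.6. The assembly chaperone Psmd10, also known as gankyrin, rose from 555.5 and 521.9 to 762.7 and 829.4 (log2 fold 0.56 ± 0.12, limma adjusted p = 0.00110), a call lost with DESeq2 (adjusted p = 0.0556). The chaperones Psmd5 and Psmd9 had log2 folds of 0.17 and 0.24 and did not pass.

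In the 20S core, 3 of the 7 constitutive beta genes rose under the authors' scaling and none fell, beside 29.8% and 27.3% of all genes. With library totals 1 of them passed as higher and 2, Psmb2 and Psmb6, as lower. Psmb5, which carries the chymotrypsin-like site, was at 991.1 and 921.0 in M-CSF and at 1878.6 and 1862.2 in GM-CSF. The groups did not overlap, at ratios of 1.90 (1.70 to 2.12) in db/+ and of 2.02 (1.82 to 2.26) in db/db and a limma log2 fold of 0.97 ± 0.10 (adjusted p = 6.43e-07). A processed pseudogene, Gm3375, matches 88.4% of its transcript at 98.9% identity. The other catalytic genes, Psmb6 of the caspase-like site and Psmb7 of the trypsin-like site, did not pass under the authors' scaling. Psmb6 was at 1537.1, 1476.0, 1612.8 and 1613.7 and Psmb7 at 1728.2, 1834.2, 1940.3 and 2010.7. Psmb7 shares exon bases with Nek6 on the other strand, a gene at 2188.6, 2194.0, 8884.0 and 8947.4.

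Psmb1 rose from 2766.0 and 2736.0 to 3533.0 and 3622.2 (log2 fold 0.38 ± 0.08, limma adjusted p = 0.00136), a call lost in limma without a variance trend (adjusted p = 0.0699). Psmb3, at 115.1, 149.9, 198.5 and 216.2, had a log2 fold of 0.64 ± 0.20 (limma adjusted p = 0.0150; DESeq2 0.261), and it has the near-identical copies named above. Psmb2, another structural beta subunit, had the lowest beta fold, at 1885.2, 1714.8, 1656.6 and 1778.3. Among the 7 alpha genes only Psma4 passed in limma, at 1204.2, 1249.5, 1434.5 and 1505.0 (log2 fold 0.26 ± 0.09, adjusted p = 0.0298; edgeR 0.0668). Psma5 had the lowest alpha fold, at 207.3, 189.1, 167.1 and 162.5. With library totals 5 alpha genes passed, all as lower in GM-CSF. Of the other activators, Psme3 (PA28 gamma, a nuclear activator) rose from 2038.3 and 2155.7 to 2577.4 and 2775.6 (0.35 ± 0.09, limma adjusted p = 0.00285), a call lost with DESeq2 (adjusted p = 0.0536) and in limma without a variance trend (0.0795). Psme4 (PA200) was at 4881.3, 5269.9, 5539.5 and 5262.8 and did not pass under the authors' scaling.

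Within each genotype the same comparison was described without a test. Folds were counted past 2 sizes, a log2 fold of 0.32 in either direction and a 2-fold difference. In db/+, 11 of the 43 genes were at least 0.32 apart between cultures on the log2 scale, beside 63.7% of all genes, and 2 were at least 2-fold apart (Psmd8 and the low Psma8), beside 27.6%. In db/db, 11 were at least 0.32 apart, beside 61.7%, and 2 at least 2-fold (Psmd8 and Psmb5), beside 27.2%. Of the 43 genes, 34 were higher in GM-CSF in db/+ and 29 in db/db, where the background was 51.9% and 50.6%. The constitutive subunits had median log2 folds of 0.14 and 0.07, which became -0.18 and -0.28 with library totals, and all genes had medians of 0.03 and 0.01.

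Of the 5 immune genes, Psmb9 alone passed the culture test under the authors' scaling. With library totals all 5 had folds below 0, and Psmb9, Psmb10 and Psme1 passed as lower in GM-CSF. Psmb9, the immune counterpart of Psmb6, was at 1288.8 and 1179.8 in M-CSF and at 665.1 and 869.2 in GM-CSF. Both GM-CSF libraries were low, with ratios of 0.516 (0.448 to 0.591) in db/+ and 0.737 (0.650 to 0.835) in db/db and a limma log2 fold of -0.69 ± 0.12 (adjusted p = 2.32e-04; 0.0609 without a variance trend). The exons of Psmb9 overlap those of Tap1, the peptide transporter gene on the other strand, which was at 2540.5, 1991.0, 1456.9 and 1388.9 and fell as well (log2 fold -0.66 ± 0.10, limma adjusted p = 3.90e-05). Reads from the shared bases cannot be assigned to 1 of the pair.

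Psmb8, the immune counterpart of Psmb5, was at 3105.5, 2508.6, 3239.1 and 3143.5, with its lowest value in M-CSF db/db and the other libraries close together. Its culture ratio was 1.04 (0.971 to 1.12) in db/+, and its log2 fold was 0.32 in db/db, which went to -0.03 with library totals. Psmb10, the counterpart of Psmb7, was at 1903.3, 1653.8, 1792.3 and 1755.7, and the cultures overlapped. Psme1 was at 2500.6, 2154.0, 2070.4 and 2103.2, highest in M-CSF db/+. None of Psmb8, Psmb10 and Psme1 passed the culture test under the authors' scaling (limma adjusted p = 0.0845, 0.998 and 0.172). With library totals their log2 folds were -0.15, -0.34 and -0.49 (limma adjusted p = 0.163, 0.00633 and 5.49e-04). The median log2 fold of the 5 immune genes was -0.09 in db/+ and -0.03 in db/db. Without Psme2, whose level is uncertain, it was -0.18 in db/+ and 0.03 in db/db.

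The ratio of 2 genes inside 1 library does not depend on the scaling between libraries, so each immune gene was set against the constitutive subunit it replaces. Psmb8 made up 75.8% (73.9 to 77.6) and 73.1% (71.2 to 75.1) of the reads of Psmb8 and Psmb5 in M-CSF, and 63.3% (61.3 to 65.2) and 62.8% (60.8 to 64.7) in GM-CSF. The cultures did not overlap, and it was Psmb5 that passed the culture test, not Psmb8. Psmb9 made up 45.6% (43.1 to 48.2) and 44.4% (41.9 to 46.9) of its pair with Psmb6 in M-CSF, and 29.2% (26.4 to 32.0) and 35.0% (32.3 to 37.8) in GM-CSF. In this pair it was the immune gene that passed under the authors' scaling. With library totals both passed as lower in GM-CSF, Psmb9 at a log2 fold of -1.03 and Psmb6 at -0.24 (limma adjusted p = 0.0347).

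Psmb10 made up 52.4% (50.2 to 54.6), 47.4% (45.2 to 49.6), 48.0% (45.6 to 50.4) and 46.6% (44.3 to 49.0) of its pair with Psmb7. M-CSF db/+ was highest here, and its interval overlapped that of GM-CSF db/+. Over all 3 pairs the immune share was 59.7% (58.4 to 60.9) in M-CSF db/+, 55.8% (54.5 to 57.1) in M-CSF db/db, 51.2% (49.8 to 52.6) in GM-CSF db/+ and 51.3% (49.9 to 52.6) in GM-CSF db/db. The order of this sum was M-CSF db/+, then M-CSF db/db, then both GM-CSF libraries, whose sums did not differ beyond counting error. For Psmb9 alone they did, at 29.2% (26.4 to 32.0) in GM-CSF db/+ and 35.0% (32.3 to 37.8) in GM-CSF db/db. These are shares of RNA reads and not of assembled complexes. The copy of Psmb5 and the overlaps of Psmb9 with Tap1 and of Psmb7 with Nek6, named above, limit these shares too. The intervals do not cover them.

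**Figure D3:**
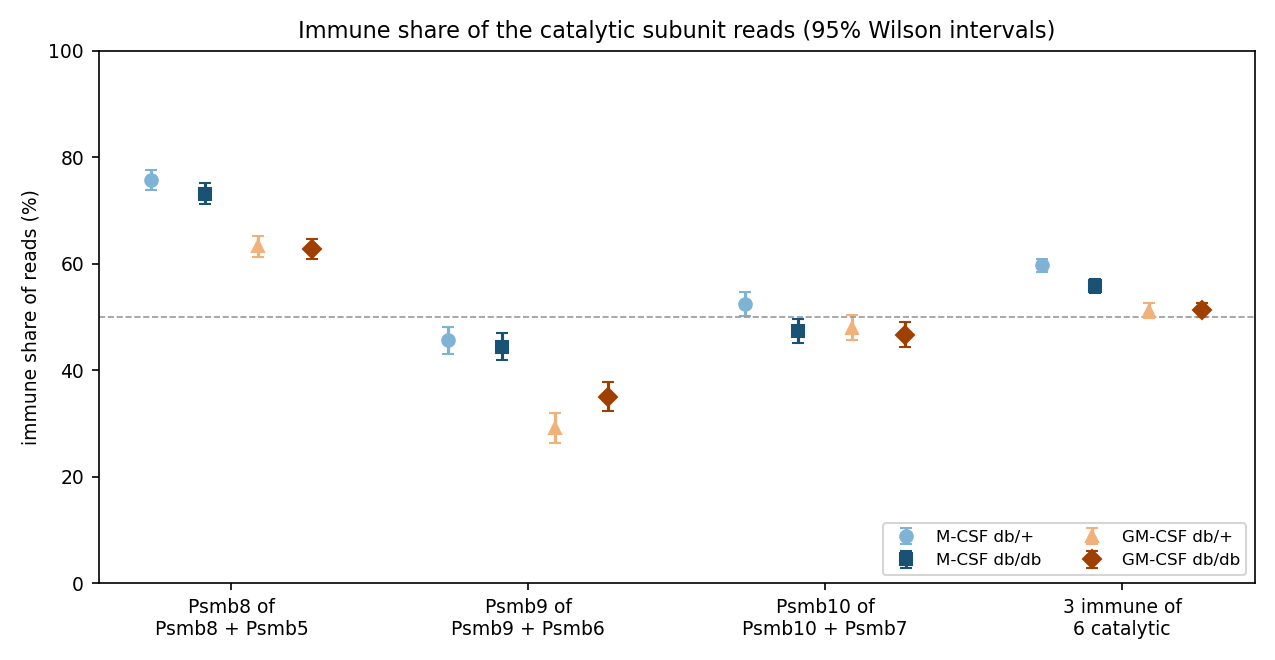
Immune share of reads (%) in each catalytic pair and over all 3 pairs, with 1 point a library and 95% Wilson intervals for counting error. The M-CSF points (75.8% and 73.1%) lie above the GM-CSF points (63.3% and 62.8%) for Psmb8, and likewise for Psmb9, while the Psmb10 points lie between 46.6% and 52.4%.

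The second comparison asked how db/db cells differed from db/+ cells in the same culture. No proteasome gene passed the genotype test: limma called 0 of 43 beside 0.00733% of all genes (1 gene), edgeR 0 beside 103 genes and DESeq2 0 beside 2. None of the 43 had an unadjusted p under 0.05 in any of these tools. Of all 13642 genes, 603 did in limma, 826 in edgeR and 112 in DESeq2, so few would be looked for among 43. The additive model takes the genotype effect to be the same in both cultures, so the values in each culture follow. In M-CSF, 2 genes were at least 0.32 apart on the log2 scale (Psmb3 and the low Psma8), beside 25.8% of all genes, and 0 at least 2-fold, beside 5.83%. In GM-CSF, 4 were at least 0.32 apart (Psmb9, Psma3, Psme2 and Psma8), beside 14.3%, and 0 at least 2-fold, beside 1.06%. Among genes reaching 200 normalised reads, 1 of 40 proteasome genes was that far apart in M-CSF, beside 16.3%, and 2 of 40 in GM-CSF, beside 4.52%.

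In this pair of M-CSF libraries, 4 of the 5 immune genes were lower in db/db, while 20 of the 31 constitutive subunits were higher, beside 54.0% of all genes. The higher ones were mostly in the 19S cap (13 of 17), and 7 of the 14 constitutive 20S genes were higher, with a median log2 fold of 0.00. Of the replaced subunits Psmb5, Psmb6 and Psmb7, 2 of 3 were lower, with a median of -0.06. The db/db to db/+ ratio of Psmb8 was 0.808 (0.752 to 0.868), that of Psme1 0.861 (0.797 to 0.932) and that of Psmb10 0.869 (0.795 to 0.951), and these intervals lie below 1, as did those of 14.3% of all genes tested. Psmb9 had 0.915 (0.821 to 1.02), whose interval includes 1. The median log2 fold of the 5 immune genes was -0.20, with 4 of 5 lower (-0.21 and 4 of 4 without Psme2), and that of the 31 constitutive subunits was 0.05, with 20 higher. All genes had a median of 0.02, with 54.0% higher in db/db, against 25 of the 43 proteasome genes. The stromal markers were higher in the same db/db library, with sums of 73505 against 26646 in db/+ and 10 of 11 at least 0.32 higher on the log2 scale. Of 7 macrophage markers, 0 were higher there, with a median log2 fold of -0.07. Lower values were not particular to the immune genes. Only 3 of 11 tested genes for peptide loading on MHC class I and 4 of 13 of the interferon pathway were higher, both with a median of -0.16. The part of these cells and pathways in the ratios was not tested.

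Among the other genes in M-CSF, Psmd6 of the lid had the highest 19S ratio, 1.23 (1.12 to 1.36), from 1344.0 to 1656.4. Psma6, an alpha subunit, went from 2012.6 to 2377.0, a ratio of 1.18 (1.09 to 1.28), and Psmc6, an ATPase, from 1842.4 to 2169.6, also 1.18 (1.08 to 1.28). These were single pairs of libraries. In GM-CSF the same genes stood, db/+ first, at 1645.4 and 1686.9 (Psmd6), 2229.7 and 2333.4 (Psma6) and 2081.7 and 2042.9 (Psmc6). Psmb3 had the highest beta ratio in M-CSF, 1.30 (0.933 to 1.86), on few reads, and the activators Psme4 and Psme3 had 1.08 (1.02 to 1.14) and 1.06 (0.973 to 1.15). At the low end, Psma1 was at 2589.0 and 2349.1, a ratio of 0.907 (0.841 to 0.979), Psmb2 had 0.910 (0.832 to 0.995), the ATPase Psmc3, at 3036.1 and 2912.9, had 0.959 (0.896 to 1.03), and Psmd3 had 0.953 (0.871 to 1.04). In all, the interval lay above 1 for 7 of the 44 genes and below 1 for 5, beside 19.8% and 14.3% of all genes tested. All 12 were among the 40 proteasome genes reaching 200 normalised reads, where the interval left out 1 for 39.4% of all genes, so the share of proteasome genes was not above the background. Single libraries can differ by more than counting error whatever their genotype.

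In GM-CSF the interval lay above 1 for 1 of the 44 genes and below 1 for 1, beside 4.28% and 2.43% of all genes tested. The median log2 folds were 0.00 for the constitutive and -0.03 for the immune genes (0.00 without Psme2). Of all genes, 52.4% were higher in db/db, against 22 of the 43. The ratios of Psmb8, Psmb10 and Psme1 were 0.970 (0.902 to 1.04), 0.980 (0.887 to 1.08) and 1.02 (0.928 to 1.11). Psmb9 was higher in db/db at 1.31 (1.12 to 1.53), and Psmd8 was lower at 0.956 (0.923 to 0.990), and these were the genes whose intervals left out 1. No interaction of genotype and culture could be tested with 1 library a group.

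**Figure D4:**
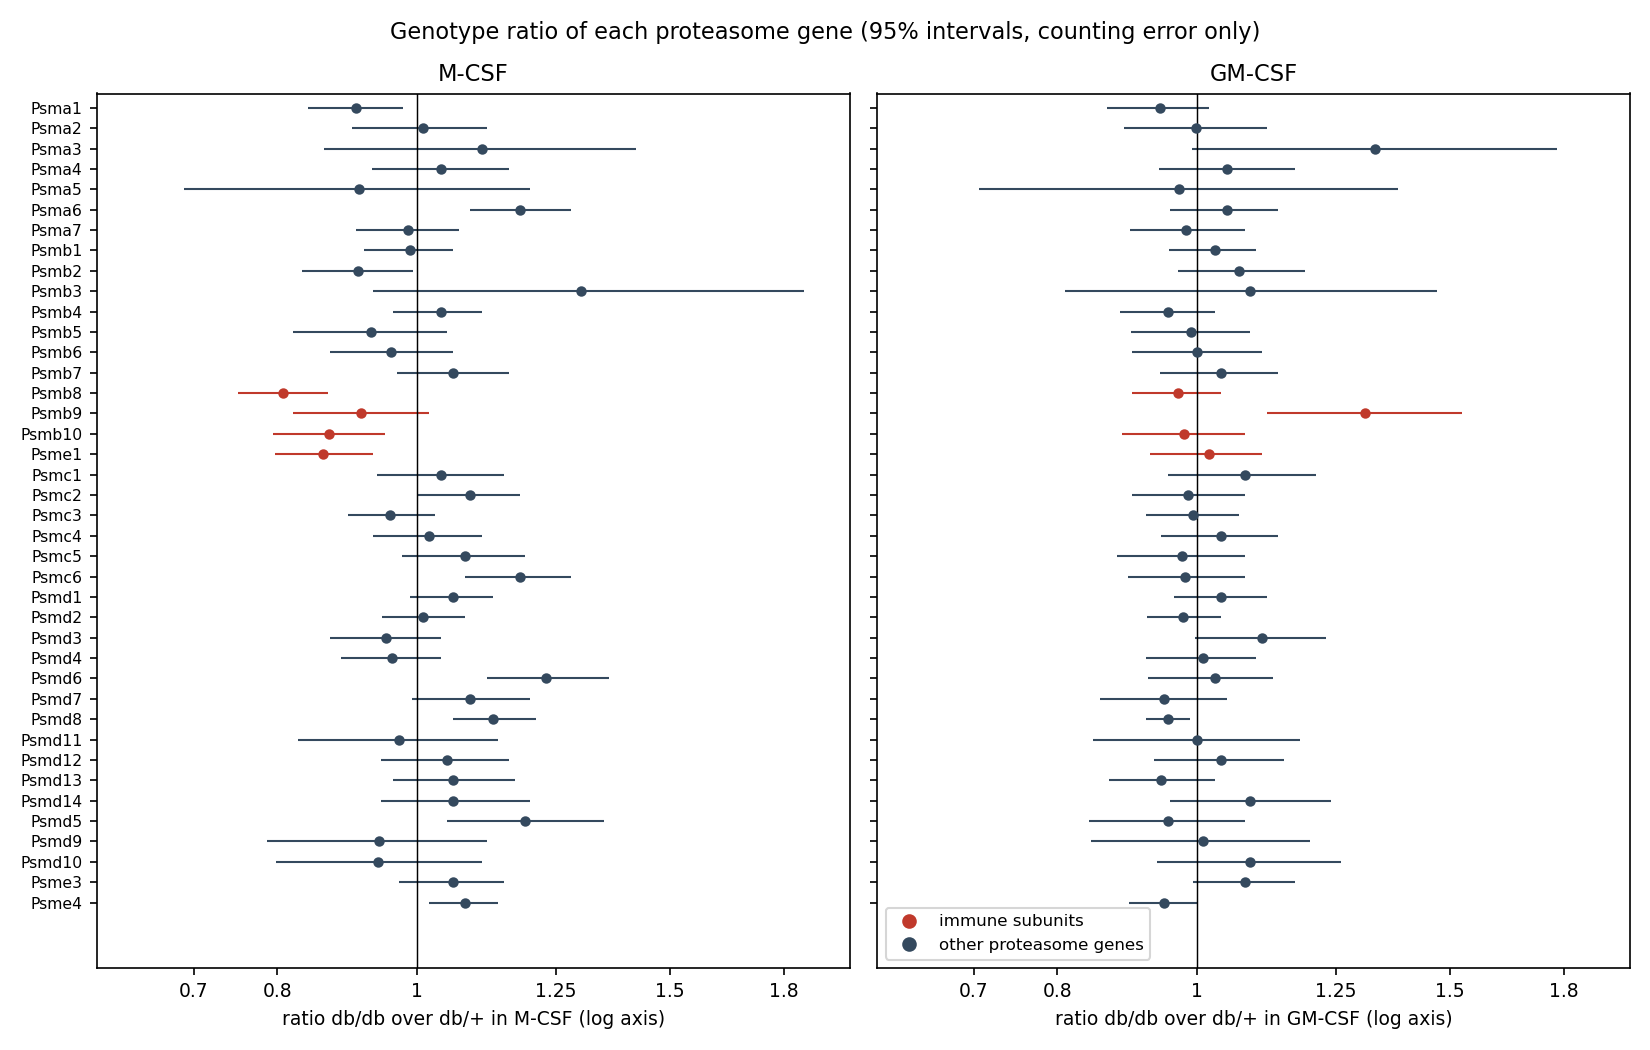
Ratio of db/db to db/+ (log axis) for 40 proteasome genes in M-CSF (left) and GM-CSF (right), with 95% intervals for counting error only and immune genes in red. In M-CSF the 4 immune genes shown lie between 0.808 and 0.915; in GM-CSF most genes lie near 1 and Psmb9 stands at 1.31.

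Genes that work with the proteasome were read from 6 lists, whose counts stand beside the 29.8% of all genes called higher and 27.3% called lower in GM-CSF. With library totals, 2288 of 13714 genes were called higher and 6387 lower. Of 6 tested assembly factors, 0 rose and 1 fell in GM-CSF: Psmg4, a chaperone of core assembly, was at 322.4, 327.6, 178.3 and 188.3 (log2 fold -0.81, limma adjusted p = 9.68e-04). Of 8 other components of the complete 26S proteasome and its associated enzymes, 3 rose (Usp14, Shfm1 and AI314180) and 0 fell, with Usp14, a deubiquitinase of the cap, at 1487.6, 1850.7, 2357.6 and 2307.6. Of 14 genes for ubiquitin, its activating enzymes and shuttle proteins, 4 rose and 1 fell, no larger a share in either direction than among all genes. Ubb, a polyubiquitin gene, had the largest log2 fold, 0.39. With library totals the latter 2 lists had 0 genes higher and 1 and 7 lower.

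Of 7 genes that control proteasome transcription, 2 rose and 1 fell. Nfe2l1, the factor that raises proteasome genes when the protease is short, was at 4987.9, 5526.9, 8528.5 and 8463.3, higher in both GM-CSF libraries (log2 fold 0.69 ± 0.08, limma adjusted p = 6.31e-06). Nfe2l2, the oxidative stress factor, had 0.39, and Ddi2, the protease that releases Nfe2l1, had -0.32. With library totals Nfe2l1 remained higher, at 0.35, and 4 genes of the list were lower.

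Of 15 genes of the interferon pathway, which controls the immune subunits, 13 were tested, 3 rose and 9 fell in GM-CSF, with a median log2 fold of -0.70. Irf1, a transcription factor of the immune subunit genes, was at 3778.0, 3162.1, 1146.3 and 1098.4, low in both GM-CSF libraries (log2 fold -1.62 ± 0.09, limma adjusted p = 1.33e-09). Nlrc5, the activator of MHC class I genes, had -0.46. The interferon genes Ifng and Ifnb1 were not tested, being at most 1.9 and 3.8 in M-CSF db/+ and at 0.0 in the other libraries. Of 11 genes for peptide loading on MHC class I, 6 rose and 2, Tap1 and H2-K1, fell. Calr, the chaperone calreticulin, rose most, at 22911.4, 21050.8, 66683.2 and 66795.1 (log2 fold 1.60). With library totals these lists had 1 gene higher and 10 lower, and 3 higher and 3 lower.

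**Figure D5:**
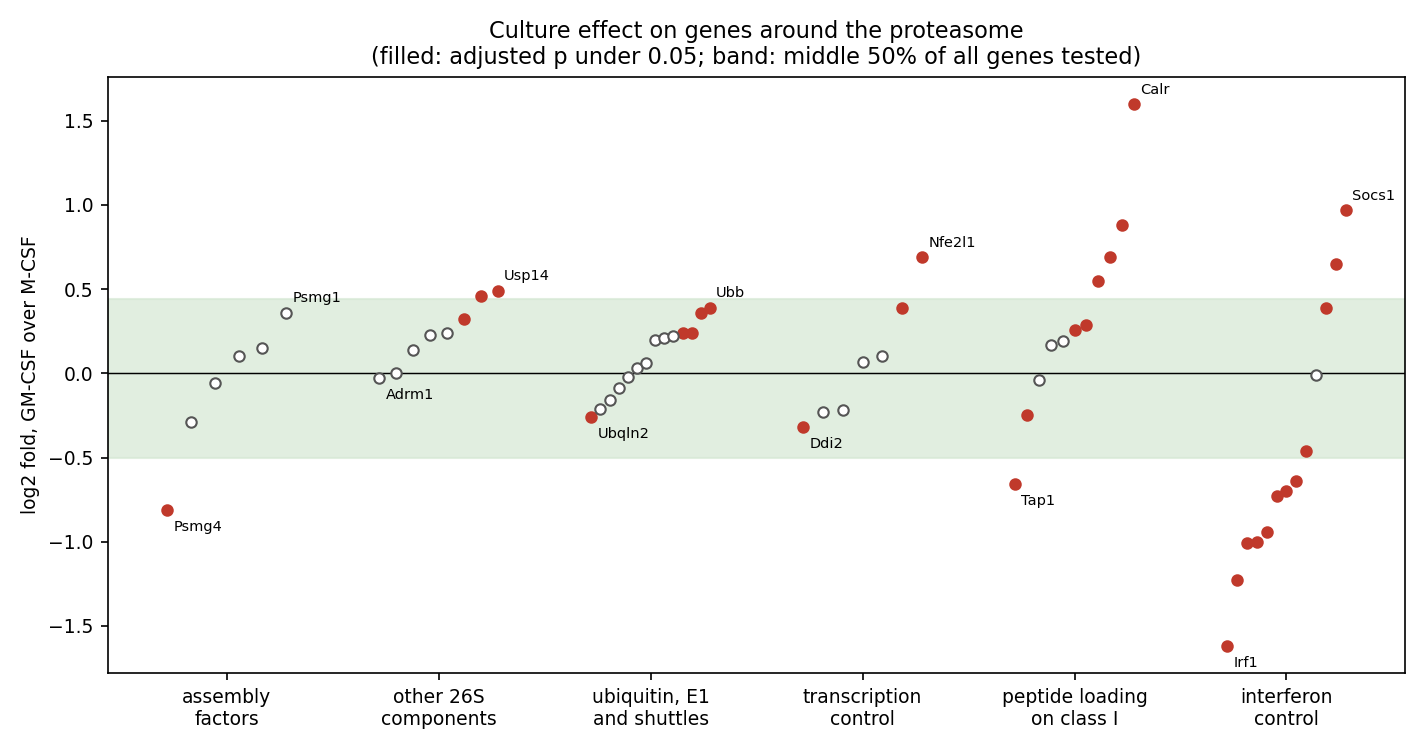
Culture effect as log2 fold of GM-CSF over M-CSF for the tested genes of 6 lists around the proteasome, 1 point a gene, filled where the adjusted p from limma was under 0.05. The interferon list lies mostly below 0, down to -1.62 for Irf1, and the peptide loading list reaches 1.60 for Calr; with library totals all points shift down.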

How the data were processed

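Ribosome-depleted total RNA of 4 libraries, 1 for each of 4 groups, was sequenced in read pairs, per the labels' protocols. The deposited values are a normalised signal per gene: the authors scaled the read counts of each library by 1 factor and kept 1 decimal. TopHat 1.2.0 and edgeR are named in the submitters' processing notes, with the mouse builds mm8 and mm9 and no role for either. The counting tool, its annotation, any filter and the strand are stated in none of the sources used here. Design choices allowed for counts or normalised values, and the files hold the latter. Per-sample columns left unused numbered 0.

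Whole reads were recovered by dividing by the step of 1 read (0.951, 0.871, 1.122 and 1.076 in the order M-CSF db/+, M-CSF db/db, GM-CSF db/+, GM-CSF db/db). Within a tolerance of 0.1, 99.9% to 100% of values in a library came out whole. At low counts, even numbers of reads outnumbered odd ones, so mates appear to have been counted separately and intervals used pairs, of which there were 12801694 to 14311353. Both this depth and the 1 library a group limit the precision.

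Genes reaching 20 normalised reads in at least 1 library were tested on log2(value + 5) with limma 3.58.1 (lmFit and eBayes with a variance trend; culture and genotype additive; prior degrees of freedom 12.87), two-sided, with Benjamini-Hochberg adjustment over 13642 genes and a threshold of 0.05. On the recovered reads, edgeR 4.0.16 called 7746 genes for culture and DESeq2 1.42.0 called 5375, beside 7787 by limma. The scripts were tested on simulated data. Other pseudocounts, filters and scalings were also tried. The p-values rest on 1 residual degree of freedom and on variance shared over genes, and they measure no spread between replicates.

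Near-identical copies are GENCODE M21 transcripts that match at least 50% of a gene's transcript at 95% identity or more (BLAST 2.17.0), and exon overlaps come from the same annotation. Coding lengths are from it too. Its build differs from that of the files, so no gene coordinates were joined. Promoter sequences and their coordinates are from RefSeq, build GRCm38.p6, and run from 250 bases before to 50 after the start. The genes named are the immune genes and their counterparts, the highest and lowest of each structural group for culture and for genotype in M-CSF, genes below the level minimum or no subunit, those past 2-fold, and those past the culture test. Members and lists were chosen with earlier results of these data known.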

Additional observations from a re-analysis of the deposited data

Results flagged for a closer look

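Psmd8 moved in opposite directions with genotype in the 2 cultures. The ratio of db/db to db/+ was 1.13 (1.06 to 1.21) in M-CSF and 0.956 (0.923 to 0.990) in GM-CSF, and neither interval for counting error includes 1. With 1 library a group the difference between the cultures was not tested. Both ratios are small beside the culture ratios of 4.53 and 3.84 of the same gene.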

How the results depend on the processing

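The 10 proteasome genes called for culture became 6 with DESeq2, 6 without a variance trend, 25 with library totals and 0 without a filter on low values, where limma also called 0 of all 22700 genes (8129 at an unadjusted p under 0.05, 14 of them proteasome genes). Psmd8, Psmb5, Psmd2 and Psmd13 were called in every fit but the one without a filter. Psmb9 was lost without a variance trend as well (adjusted p = 0.0609), and Psma4 was lost in 6 alternatives. The 1 gene called for genotype among all genes became 103 with edgeR, 2 with DESeq2, 3 at a level minimum of 200, 2 at a pseudocount of 1, and 0 at a pseudocount of 20, without a filter, without a variance trend and with library totals, and no proteasome gene was among them in any fit.

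Counts past 2-fold between cultures became 1 in db/+ at a pseudocount of 20, at a level minimum of 200 and with DESeq2 size factors, and 1 in db/db with DESeq2 size factors. For genotype in M-CSF the count past 2-fold became 1 without a filter, and at a level minimum of 200 the counts past a log2 fold of 0.32 became 1 in M-CSF and 2 in GM-CSF. With library totals 21 genes were past a log2 fold of 0.32 between cultures in db/db.

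With library totals the culture medians became -0.18 (db/+) and -0.28 (db/db) for the constitutive and -0.41 and -0.39 for the immune genes, and Psmb8 in db/db turned to -0.03. The limma culture folds of these genes also turned: Psma2 -0.17, Psma4 -0.08, Psma6 -0.28, Psma7 -0.29, Psmb4 -0.19, Psmb6 -0.24, Psmb7 -0.19, Psmb8 -0.15, Psmc3 -0.31, Psmc4 -0.16, Psmc5 -0.29, Psmc6 -0.30, Psmd1 -0.30, Psmd4 -0.23, Psmd6 -0.18, Psmd7 -0.29, Psmd11 -0.18, Psmd12 -0.12, Psmd14 -0.28, Psmd5 -0.17, Psmd9 -0.09, Psme4 -0.25 and Psmc3ip -0.24. With edgeR or DESeq2, Psmc3 and Psmd1 turned to -0.01 and Psmc6, Psmd1 and Psmd7 to 0.00. Scaling to library totals shifts all folds together by its construction, and the immune shares do not depend on it. For the other changes the cause was not tested. No paired analysis was possible because each group is 1 library with no replicate number. Depth limits Psme2, Psma8, Psmc3ip and Psmb11, which had few reads.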
